A study of Mus musculus with 4 samples.

Results

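Genes of the contractile and smooth-muscle-type actin programme were followed in NIH-3T3 cells, an established mouse embryonic fibroblast line, after treatment with activators of chaperone-mediated autophagy (CMA). CMA is the uptake of single proteins into lysosomes through the receptor LAMP2A. The genes were Acta2, Actg2, Tagln, Cnn1, Cald1, Tpm1, Tpm2, Myl9, Vcl and Srf, 10 of the 36838 gene names compared. They were chosen by name, and every array probe listed under one of their RefSeq transcripts was taken, whatever its value. This gave 18 probes, which occupied 27 spots on each array. For 5 of the genes there was 1 probe, and the other 5 had more than 1.

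The study used 4 one-colour Agilent arrays, 1 for each group. One array held RNA of untreated cells, and the others held RNA of cells given 20 µM of AR7, CA39 or CA77 for 24 h after reaching confluency. These compounds are small molecules designed against retinoic acid receptor alpha. They were given in DMSO, and the control is labelled as receiving nothing, so in differences shared by all 3 treated cultures DMSO and compound cannot be told apart. Each group is 1 culture of 1 line with no replicate check, so no test was run, no p-value is given and every difference below compares a pair of arrays.

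Contraction comes from myosin II pulling on actin filaments. Its activity is set by its regulatory light chain, and tropomyosin, calponin, caldesmon and transgelin bind the filaments and regulate or stabilize them. In fibroblasts the muscle-type members of this set mark the myofibroblast, the contractile cell of wounds and scars. Many of the genes are targets of serum response factor (SRF), which binds a DNA element called the CArG box. Its myocardin-related cofactors are held in the cytoplasm by unpolymerized actin and are released when filaments are built.

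CArG boxes were looked for in the promoters of these genes, since the element is the feature that the SRF targets are known to share. The window ran from 250 bases before to 50 bases after the annotated start, in RefSeq sequence of mouse assembly GRCm38.p6. The strict motif was CC, then 6 bases that are each A or T, then GG, read on both strands. Promoters were listed for 8 of the 10 genes (not for Tagln and Actg2), and 3 of the 8 held a strict box, against 1.81% of the 27025 genes with a promoter. These were Vcl, Myl9 and Srf, with 2 boxes in Srf. With 1 base of the core free to be any base, a search added after the strict one had been seen, Acta2 joined them, and 11.3% of all genes had such a match. The stretches below are those of the gene with the largest difference in size (Acta2), of the gene with the largest rise over untreated cells (Vcl) and of SRF itself. The boxes are in capitals, and each stretch reads 5′ to 3′ along the gene.

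Acta2 (chr19:34255378-34255477, minus strand, boxes starting 84 and 34 bases before the start, each with 1 core base that is neither A nor T): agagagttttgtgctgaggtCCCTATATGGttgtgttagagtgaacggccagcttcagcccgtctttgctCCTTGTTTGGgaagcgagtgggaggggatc

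Vcl (chr14:20929151-20929200, plus strand, box starting 227 bases before the start): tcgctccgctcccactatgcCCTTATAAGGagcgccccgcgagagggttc

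Srf (chr17:46556195-46556264, minus strand, boxes starting 82 and 62 bases before the start): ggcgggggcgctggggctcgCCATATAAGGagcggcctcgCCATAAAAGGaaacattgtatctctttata

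A match is a run of letters in this window and not a measured binding site. The array design cites an earlier build, so these coordinates are those of the promoter table and not of the probes.

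Signal on each array was background-corrected, quantile normalized and put on the log2 scale, so that 1 unit is a 2-fold difference. On this scale 9 of the 10 genes were well above background on all 4 arrays, as were 20594 genes in all. Myl9 was the exception. The share of probes well above background was 69.7% on the untreated array and 52.2% to 61.6% on the treated arrays. The untreated array lay in another row of the slide than the treated arrays and CA77 was read in a separate scan, so treatment cannot be told apart from slide row, nor CA77 from its scan. The error within an array came from probes printed 10 times, of which 265 to 302 of 399 were detected on each array and used. Their repeat spots gave a tolerance of 0.16 (log2), or 1.12-fold, for a difference of 2 arrays. This tolerance is the typical SD of a difference between single spots and not an outer limit, so measurement error alone can exceed it. The spread between cultures is not covered.

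Acta2, which encodes smooth muscle alpha-actin, the defining actin of myofibroblasts, gave the largest differences of the 10 genes with AR7 and with CA77. Its probe (transcript NM_007392) is one of those printed 10 times, at positions spread over the array. The normalized level was 9.22 ± 0.09 (SD, n = 10 spots) on the untreated array, with spots from 9.06 to 9.35. With AR7 it was 8.30 ± 0.16 (SD, n = 9 spots), from 7.99 to 8.53. With CA39 the level was 9.59 ± 0.06 (SD, n = 9 spots), from 9.50 to 9.70. With CA77 it was 8.19 ± 0.16 (SD, n = 9 spots), from 7.89 to 8.45. One spot was left out as an outlier on each treated array. The spots of the AR7 and CA77 arrays lay wholly below those of the untreated array, and the spots of CA39 lay wholly above them. The same order stood in the signal before normalization, with a mean net signal of 567 scanner units for the untreated array, 300 for AR7, 775 for CA39 and 222 for CA77.

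**Figure D1:**
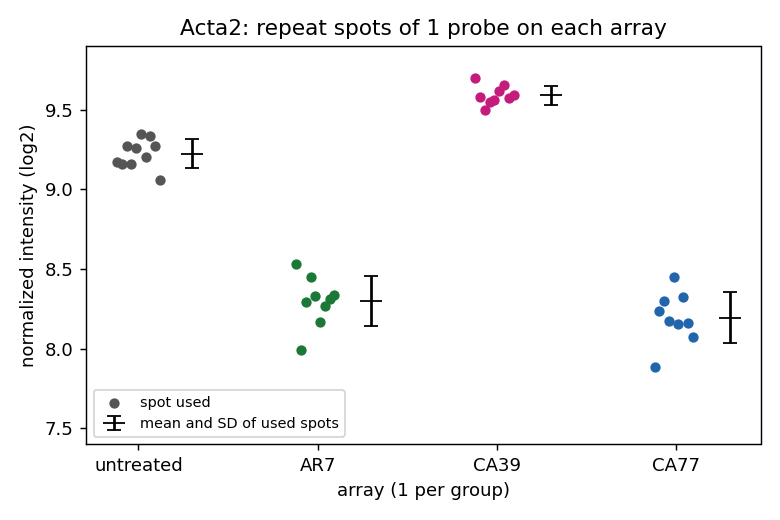
Normalized intensity (log2) of each used repeat spot of the Acta2 probe, by array, with the mean and SD over spots beside the points. The CA39 spots (9.50 to 9.70) lie above the untreated spots (9.06 to 9.35), and the AR7 and CA77 spots (7.89 to 8.53) lie below them and overlap each other.

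Acta2 was 1.90-fold lower with AR7 than in untreated cells, a log2 difference of -0.93 with a combined spot SD of 0.18. It was lower at 9 of 9 spot positions used on both arrays, by -1.17 to -0.64. With CA77 it was 2.04-fold lower, at -1.03 with a combined spot SD of 0.18, and again lower at 9 of 9 positions (-1.27 to -0.86). With CA39 it was 1.29-fold higher, at 0.37 with a combined spot SD of 0.11, and higher at 9 of 9 positions (0.23 to 0.53). These spots repeat 1 hybridization of 1 culture, so their agreement concerns the measurement and not the culture.

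The place of Acta2 among all genes differed between the compounds. With AR7, 0.296% of the 21654 genes measured on both arrays were at least as low as Acta2, and with CA77 0.353% of 24364 were. With CA39, 12.9% of 21393 genes were at least as high. Among the 258 probes printed 10 times and detected on every array, Acta2 was the second lowest with AR7 and with CA77, after Wfdc21 (-0.96 and -1.07), and 30 of the 258, Acta2 included, were at least as high as it with CA39.

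Both drops lay close to the 2-fold line, so the call turned on the processing. With CA77 Acta2 was past 2-fold as reported and under 10 of 12 other ways of processing, with values from -1.22 to -0.92. With AR7 it was past 2-fold under 3 of 12, with values from -1.03 to -0.83. The direction was kept under every alternative run, also for CA39, where the values ran from 0.34 to 0.38 in 11 alternatives. Acta2 has 1 probe and was detected on every array. Alternatives that change only how probes are combined, which genes are kept or how undetected values are set could therefore not move its value.

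**Figure D2:**
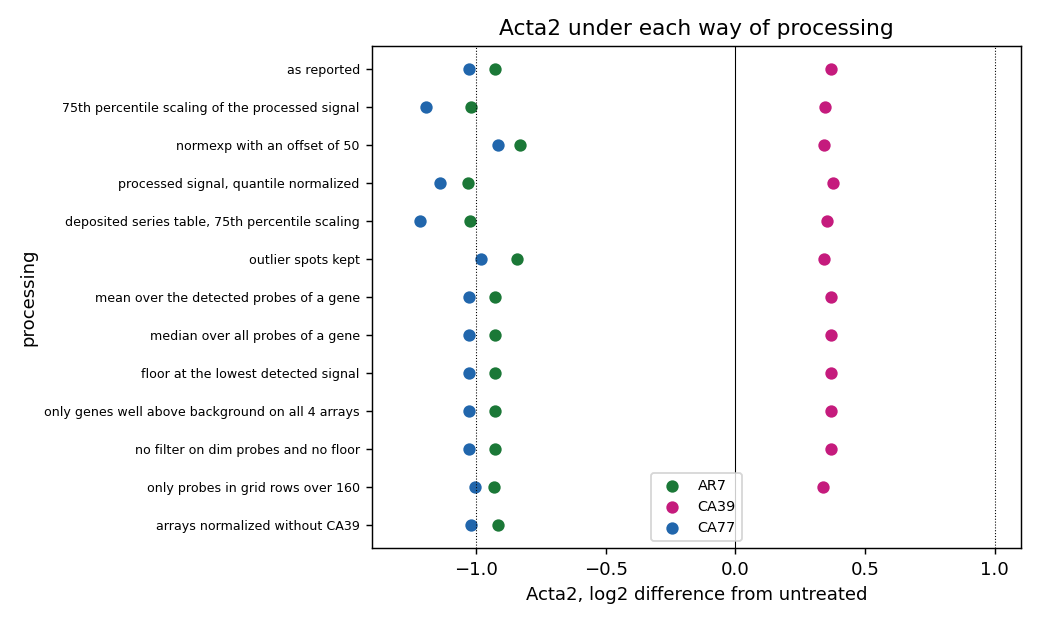
Log2 difference of Acta2 from the untreated array (horizontal axis) under each way of processing (vertical axis), with dotted lines at 2-fold. AR7 (-1.03 to -0.83) and CA77 (-1.22 to -0.92) straddle the lower line, and CA39 (0.34 to 0.38) stays above 0 and below 2-fold. Normalization without CA39 gives no CA39 point.

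Actg2, the gamma-actin of visceral smooth muscle, did not follow Acta2. Its 1 probe (NM_009610) read 8.31 on the untreated array, 8.56 with AR7, 8.89 with CA39 and 8.46 with CA77. Untreated cells had the lowest level. The difference was 0.58 with CA39, just under 1.5-fold, and 0.25 with AR7, both beyond the tolerance. With CA77 it was 0.15, within the tolerance. Thus the muscle-type actins lay on opposite sides of the untreated level with AR7, while both were higher with CA39.

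The thin-filament regulators differed less than Acta2 with AR7 and with CA77, while with CA39 Tagln and some Tpm1 probes differed more. Tagln, which encodes transgelin (SM22-alpha), an actin cross-linking protein used as an early smooth muscle marker, read 10.69 on the untreated array, 10.83 with AR7, 10.30 with CA39 and 10.41 with CA77. Its difference (log2) was -0.39 with CA39 and -0.27 with CA77, both beyond the tolerance, and 0.15 with AR7, within it. The order of its levels was therefore not that of Acta2, since CA39 gave the lowest Tagln level and the highest Acta2 level. Around the Tagln probe, the median difference of neighbouring spots was -0.12 with CA39 and -0.09 with CA77, and its part in the Tagln values was not tested.

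Cnn1 encodes calponin, which binds actin and slows myosin's motor. It read 8.10 on the untreated array, 8.41 with AR7, 8.10 with CA39 and 8.30 with CA77. It was 0.31 higher with AR7 and 0.20 higher with CA77, while CA39 left it at a difference of 0.00. Cald1 encodes caldesmon, which blocks myosin's access to actin. Its brighter probe read 13.14 on the untreated array, 13.03 with AR7, 12.96 with CA39 and 12.92 with CA77. Its difference was -0.21 with CA77 and -0.18 with CA39, just beyond the tolerance, but a second probe of the same transcript gave 0.01 with CA39 and -0.15 with CA77. No Cald1 difference exceeded the tolerance with both probes.

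Tropomyosins wind along the actin filament and set which partners it can bind. Tpm1 was measured by 5 probes, all of which were lower on every treated array than on the untreated array, though by unequal amounts. The brightest probe (NM_001164249) read 14.41 on the untreated array, 14.08 with AR7, 14.35 with CA39 and 14.13 with CA77. Its differences were -0.33, -0.06 and -0.28, so CA39 lay within the tolerance of the untreated value. A pair of probes listed under another transcript (NM_001164248) and printed in distant rows of the array gave larger drops. With AR7 their differences were -0.53 and -0.49. They were -0.72 and -0.69 on the CA39 array and -0.41 and -0.48 on the CA77 array. For these probes CA39 gave the lowest level of the 4 arrays, which the brightest probe did not show.

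The remaining Tpm1 probes (NM_001164251 and NM_001164255) gave -0.10 and -0.13 with AR7 and -0.36 and -0.17 with CA39. On the CA77 array they gave -0.20 and -0.19. From the lowest to the highest of the 5 probes the differences spanned 0.43 (AR7), 0.66 (CA39) and 0.29 (CA77), each wider than the tolerance. Tpm1 is spliced into many isoforms, and which of them each probe can bind beyond its listed transcript was not tested. Beside 1 of the larger drops (the first of the pair above) the neighbouring spots had a median of -0.17 with CA39, and beside the other of the pair 0.07. Tpm2 differed less. Its brighter probe read 12.20 on the untreated array, 11.98 with AR7, 12.09 with CA39 and 12.14 with CA77. Its difference of -0.23 with AR7 was beyond the tolerance, but the second Tpm2 probe gave -0.10 there.

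**Figure D3:**
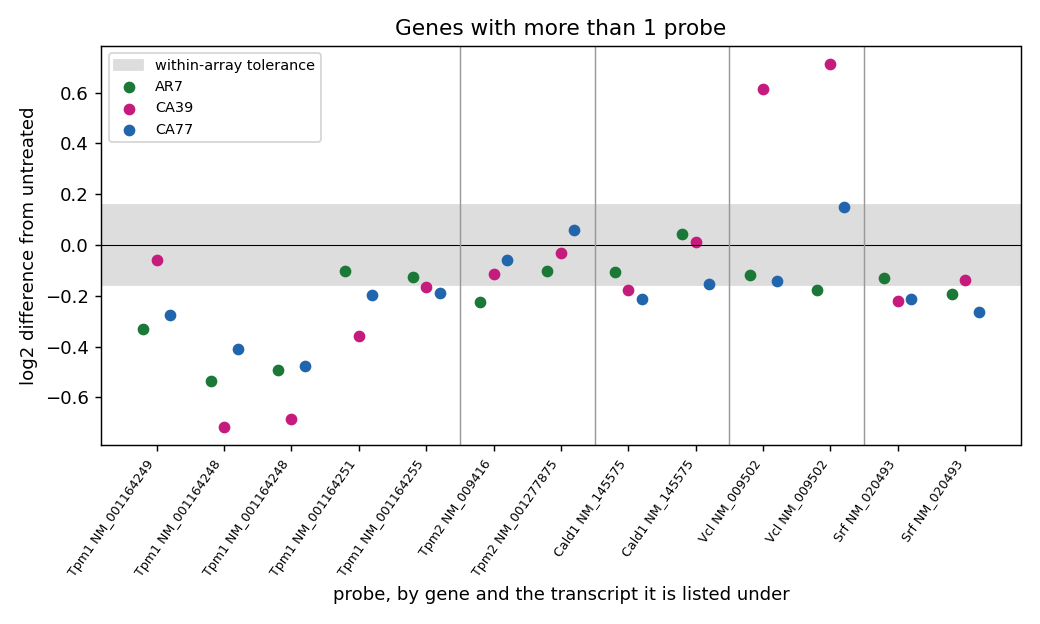
Log2 difference from the untreated array for every probe of the 5 genes with more than 1 probe, labelled by gene and listed transcript, with the within-array tolerance of 0.16 on each side of 0 in grey. The 5 Tpm1 probes all lie below 0, with the NM_001164248 pair lowest at -0.72 and -0.69 with CA39, and both Vcl probes are highest with CA39 (0.62 and 0.71).

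Myl9, the regulatory light chain of smooth muscle and non-muscle myosin II, was too dim to compare with AR7 or CA39. It read 6.30 on the untreated array and 6.71 with CA77, where it was well above background. It read 6.38 with AR7 and 6.49 with CA39, where it was not. The difference with CA77 was 0.42, or 1.33-fold, and under another background correction with quantile normalization it reached 1.16, so its size rested on the processing.

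Vcl was the gene with the largest rise. It encodes vinculin, which couples actin filaments to integrin adhesions under tension. Its brighter probe read 13.03 on the untreated array, 12.91 with AR7, 13.64 with CA39 and 12.89 with CA77. CA39 gave the level that stood apart, while the other 3 levels lay within 0.14 of each other. The difference with CA39 was 0.62, or 1.53-fold, and the second Vcl probe gave 0.71 (8.87 on the untreated array and 9.58 with CA39). With AR7 the probes gave -0.12 and -0.18, and with CA77 -0.14 and 0.15. Neighbouring spots had medians of -0.01 and 0.03 with CA39. Over 10 alternatives the brighter-probe or averaged value with CA39 ran from 0.55 to 0.66, and 6.99% of the genes measured were at least as high as Vcl on this array.

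Srf itself, the transcription factor of the programme, was slightly lower on each treated array. It read 12.79 on the untreated array, 12.66 with AR7, 12.57 with CA39 and 12.58 with CA77. It differed from untreated cells by -0.13, -0.22 and -0.21. The second Srf probe gave -0.19, -0.14 and -0.26, so both probes were lower on each treated array and only CA77 exceeded the tolerance with both.

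**Figure D4:**
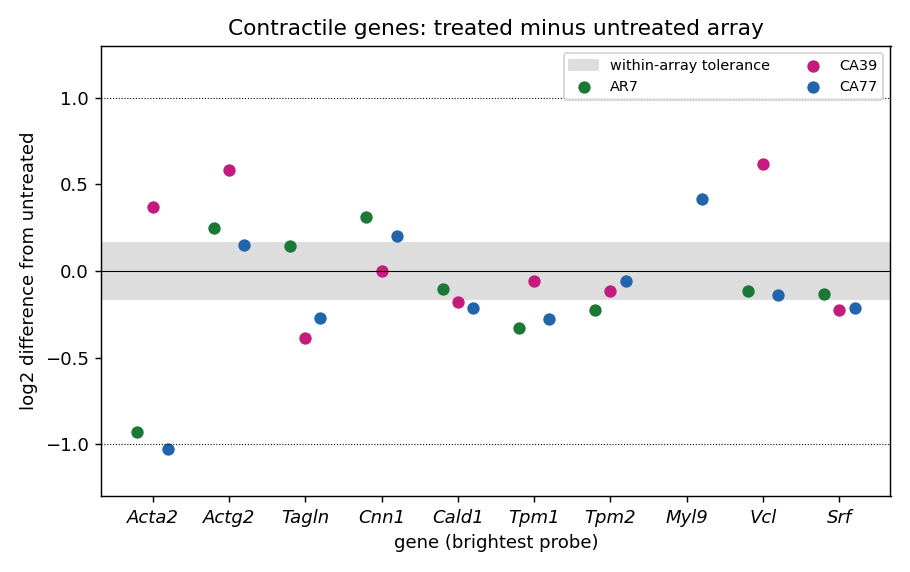
Log2 difference from the untreated array for the brightest probe of each of the 10 genes, coloured by compound, with the within-array tolerance of 0.16 in grey and dotted lines at 2-fold. Acta2 is apart from the rest with AR7 (-0.93) and CA77 (-1.03), and Vcl (0.62) and Actg2 (0.58) are highest with CA39. Myl9 is shown for CA77 alone.

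Counted together, the 10 genes did not move as 1 group with any compound. With AR7 none of the 10 was past 2-fold (0 of 10), where 2.19% of all genes tested were. The CA39 count was again 0, against 4.85% of all genes. The CA77 count was 1 (Acta2, lower), against 2.47% of all genes and 0.548% in the lower direction. These shares include genes detected on only 1 of the arrays compared. Of the 20594 genes well above background on all 4 arrays, 120 were past 2-fold higher and 47 lower with AR7. The numbers were 455 and 238 with CA39, and 101 and 73 with CA77. With 10 genes, shares of this size correspond to less than 1 gene, so the counts of the 10 genes do not set the group apart from the background. At 1.5-fold the counts were 1 lower with AR7 (Acta2, against 1.45% of all genes), 1 higher with CA39 (Vcl, against 6.91%) and 1 lower with CA77 (Acta2, against 2.73%).

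Over the genes measured on both arrays the median difference was -0.12 for AR7 (9 genes), -0.06 for CA39 (9 genes) and -0.18 for CA77 (10 genes), beside -0.01, -0.03 and -0.02 over all genes. Beyond the tolerance, 2 genes were higher and 3 lower with AR7. The counts were 3 higher and 3 lower for CA39, and 2 higher and 5 lower for CA77. Of all genes, 17.8% were higher and 20.6% lower beyond the tolerance with AR7. The shares were 25.6% higher and 32.5% lower on the CA39 array, and 20.1% higher and 26.9% lower on the CA77 array. The 3 comparisons share the untreated array, so a deviation of that array would enter all of them.

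The compounds were next compared with each other at the matched dose and time, in 3 pairs. Acta2 was 2.45-fold higher with CA39 than with AR7 (1.29, higher at 8 of 8 spot positions) and 2.63-fold higher with CA39 than with CA77 (1.40, at 8 of 8 positions). It was the 1 gene of the 10 past 2-fold in each of these pairs, where 6.15% and 6.22% of all genes were, and 3.72% and 3.98% in the higher direction. Between CA77 and AR7 the Acta2 difference was -0.10 with a combined spot SD of 0.22, the spot ranges overlapped, and 2 of 8 positions were higher. This is within the tolerance, and with 1 array each it does not show that the compounds act alike.

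Vcl was also higher with CA39 than with AR7, by 0.73 and 0.89 for its probes, and higher than with CA77 by 0.76 and 0.56. Tagln ran the other way, at -0.53 for CA39 against AR7, and was also lower with CA77 than with AR7, at -0.42. Between CA77 and AR7, 7 of the 9 genes measured on both arrays lay within the tolerance, none was past 2-fold (0 of 10, against 2.57% of all genes), and Tagln was the furthest apart. For Tpm1 the order of CA39 and AR7 depended on the probe, at 0.27 for the brightest probe and -0.18 and -0.20 for the NM_001164248 pair. Median differences over the 9 genes measured on both arrays of each pair, Myl9 not among them, were 0.11 for CA39 against AR7, -0.10 for CA77 against AR7 and 0.04 for CA39 against CA77, beside -0.03, -0.02 and -0.00 over all genes. The first of these turned to -0.13 when only probes in grid rows over 160 were used, which left 6 genes.

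**Figure D5:**
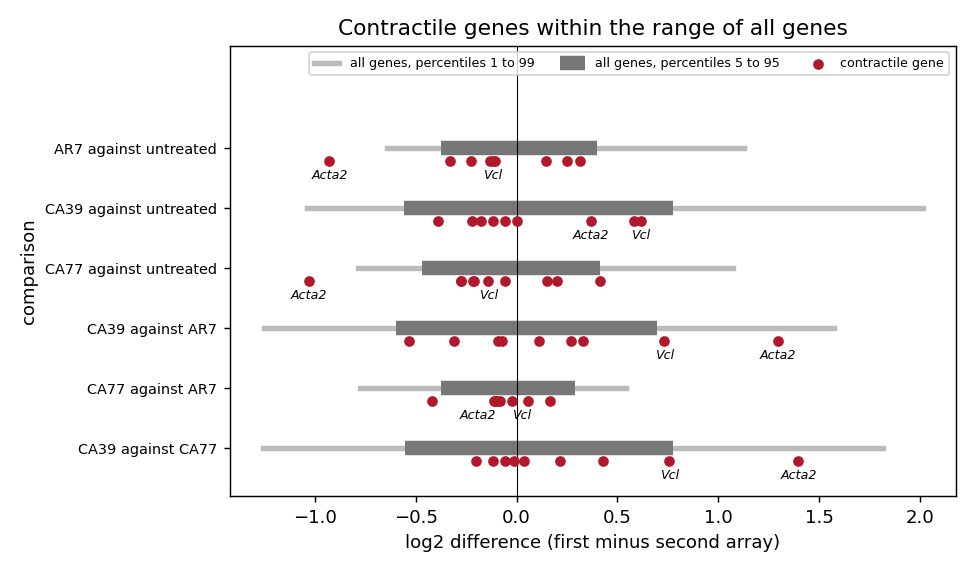
Log2 difference of each contractile gene measured on both arrays (red points, first minus second array) in the 6 comparisons, under bars for the middle of all genes measured. Acta2 lies outside the percentile 1 to 99 range of all genes with AR7 (-0.93) and CA77 (-1.03) and inside it in the other comparisons, and the remaining genes lie inside it throughout.

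The other genes of the pathway were taken from 5 lists holding 63 genes. With AR7 and with CA77 none was past 2-fold in either direction (0 of 58 tested in each), and with CA39 3 of 59 were, all higher (5.08%, beside the 4.85% of all genes). The non-muscle actins Actb and Actg1, the bulk of fibroblast actin, gave -0.09 to 0.01 over the 3 compounds for their brightest probes. Actg1 has 5 probes, which disagreed. With CA39 a pair of dimmer ones gave 0.38 and 0.28, and another gave -0.17 with AR7, each beyond the tolerance. The cardiac actin Actc1 and the beta-actin-like Actbl2 were not above background on any array. Of the 9 myosin II chains and kinases, none was past 1.5-fold with any compound. By brightest probes, the furthest from untreated was Myh10, a non-muscle heavy chain, at 0.34 with CA39. A dimmer probe of the light chain Myl6 gave 0.40 there, and its brightest probe 0.19.

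Among 20 actin-binding proteins, Tmsb4x was past 2-fold. It encodes thymosin beta-4, the main buffer of unpolymerized actin, and its 1 probe read 7.71 on the untreated array, 7.66 with AR7, 12.06 with CA39 and 7.92 with CA77. Its CA39 difference of 4.35 rests on 1 spot, whose neighbours had a median of -0.03. Des, the muscle intermediate filament protein desmin, is printed 10 times and differed by -0.82 with CA39. It was past 2-fold lower with CA39 than with AR7 (-1.06) and than with CA77 (-1.17). Among 18 focal adhesion partners of vinculin none was past 2-fold. Lpp, a zyxin relative, was the furthest at 0.79 with CA39, and its second probe gave 0.43. Between compounds Lims2, an adhesion adaptor, was furthest apart in this adhesion list, at -0.95 for CA39 against CA77.

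Of 11 SRF cofactors and partners, Nkx2-5 and Myocd were past 2-fold, both with CA39. Nkx2-5, a cardiac homeobox factor, read 7.67 on the untreated array and 9.01 with CA39, a difference of 1.34. Myocd, which encodes myocardin, the muscle-restricted SRF cofactor, was well above background with CA39 only. Its difference there was at least 2.04 on the log2 scale, set against the detection floor of the untreated array. The cofactors that respond to actin, Mrtfa and Mrtfb, were within the tolerance with all 3 compounds for their brightest probes (-0.05 to 0.04). A pair of dimmer Mrtfb probes gave 0.42 and 0.28 with CA77, beyond the tolerance.

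The labelled cell type was checked with marker genes. Of 10 fibroblast markers, 9 were well above background on the untreated, AR7 and CA77 arrays and 10 on CA39, with summed levels of 19.88, 19.64, 19.71 and 20.25 (log2). With CA39 5 of the 10 were past 2-fold higher and none lower, with a median of 0.58 over the 9 measured on both arrays, namely Fn1 (fibronectin, 1.47), Pdgfra (1.19), Col5a2 (1.12), Col1a1 and Pdgfrb, which was above background with CA39 only and differed by at least 2.90. With AR7 1 of 9 tested, Col1a1, was past 2-fold lower, and the median was -0.22. With CA77 0 of 9 were past 2-fold, and the median was -0.14. Col1a1, the main fibrillar collagen of fibroblasts, differed by -1.04 (AR7), 1.06 (CA39) and -0.83 (CA77), in the direction of Acta2. Not all markers did so, since S100a4 was at -0.22 with CA39 and Col5a2 at 0.27 with CA77. The genes of mature smooth muscle were mostly dim. Of 6, 4 were above background on the untreated array, 2 with AR7, 3 with CA39 and 2 with CA77. Smooth muscle myosin Myh11 was above background on the untreated array only, though it read 5.92 there and 5.81, 5.72 and 5.78 with AR7, CA39 and CA77. Percentile 1 of the detected signal was 5.88 on the untreated array and 6.26 to 6.87 on the treated arrays. Counts of detected markers are therefore not at a matched limit, and a lower count with treatment is not a measured loss. Lmod1 was above background on none. Epithelial markers had summed levels of 9.13, 9.14 and 8.88 on the untreated, AR7 and CA77 arrays and of 10.69 on CA39, where Krt8 was 2.38 higher and Epcam, not above background on the other arrays, at least 1.65 higher. Markers of further cell types were also above background. On the untreated array these were 4 of 4 for endothelium, 4 of 4 for blood cells and 5 of 6 for striated muscle, with summed levels of 12.11, 11.25 and 9.63, so the check does not single out fibroblasts by detection alone. The highest endothelial level was that of Kdr, at 11.91 on the untreated array, read from 1 spot. Another Kdr probe, printed 10 times, read 5.57 there and was not above background on any array. On the treated arrays 3 of 4 endothelial, 2 to 4 of 4 blood cell and 2 to 3 of 6 striated muscle markers were above background. The summed levels were 11.92 to 12.05, 10.95 to 11.25 and 9.50 to 9.69. The endothelial cadherin Cdh5 differed by 0.62 (AR7), 0.01 (CA39) and 0.52 (CA77). The other endothelial markers measured were lower with each compound. In the same order Pecam1 gave -0.14, -0.02 and -0.20, and the brighter Kdr probe gave -0.07, -0.19 and -0.21. The part of these marker differences in the values of the contractile genes was not tested. In RNA of whole cultures, fewer cells of a type and less RNA per cell cannot be told apart.

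The genes whose 3 differences from untreated lay nearest to those of Acta2 were sought among the 10292 genes detected on all arrays at or above the median level. Nearest by root mean square distance (log2) were Tyr (0.129), Cp (0.184), Cacna1a (0.219), Foxc1 (0.249) and Cspg4 (0.258). Tyr was at -0.84, 0.54 and -0.91 with AR7, CA39 and CA77, and Cp, which encodes the copper-binding protein ceruloplasmin, at -0.89, 0.67 and -0.94. The search left out the 10 contractile genes by rule, and Acta2 itself lay below its level cut of 10.85 (log2).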

How the data were processed

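The authors labelled total RNA of 4 NIH-3T3 cultures with Cy3 and read one-colour Agilent mouse arrays with Feature Extraction 10.7.3.1. The deposited values are linear spot intensities with a local background and quality marks. The methods of the study name oligo and RMA, whose output was not analysed here. A deposited series table of background-subtracted intensity served as an alternative.

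Local background was removed from the median intensity of each spot by limma 3.58.1 in R 4.3.3 (normexp, offset 0, every spot). The mean named in the plan was not in the scanner values used here. After control spots had been dropped, the arrays were quantile normalized on the linear scale and then put on the log2 scale. Spots marked non-uniform or as population outliers were dropped (142 to 328 per array), and saturated spots numbered 0. The spots of a probe were averaged, and detection asked that more than 50% of them be well above background. RefSeq names of GRCm38.p6 were found for 27512 of 55378 probes. A gene takes its brightest probe, with the other probes of the 10 genes given beside it.

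Undetected values were raised to percentile 1 of the detected signal of their array (log2 5.88 for untreated, 6.82 for AR7, 6.87 for CA39, 6.26 for CA77), and where the higher of both values was undetected the difference was 0. Past 2-fold means a log2 difference of 1 or more in size with detection on at least 1 array. Medians cover genes measured on both arrays, since zeros set by rule would pull them to 0. The tolerance is the square root of 2 times the median SD of repeat spots (0.12, 0.12, 0.09 and 0.10 in the order untreated, AR7, CA39, CA77). The calling step was tested on simulated data. The number of arrays limits the precision.

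The genes, the lists around them and the alternatives were chosen with earlier results of these data known. Named are all 10 genes, from the 5 pathway lists reported each gene past 2-fold with any compound and the gene with the largest difference, and the 5 nearest to Acta2. Markers, Des, Actc1, Actbl2, Mrtfa and Mrtfb were picked for their roles after their values were seen. One further list is not reported here.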

Additional observations from a re-analysis of the deposited data

How the results depend on the processing

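The counts past 2-fold against untreated, the medians and the differences of single genes were recomputed under 11 alternatives in processing where these gave a value, the counts also at a 1.5-fold threshold, and under normalization without the CA39 array, which was chosen after seeing the data. Counts between compounds, ranks among repeat probes, nearest genes and CArG boxes were not recomputed. Of 38 recomputed counts past 2-fold, 30 stayed within 1.5 times the reported count and 8 moved. The AR7 count rose from 0 to 1 (Acta2) with 75th percentile scaling of the processed signal, with the processed signal quantile normalized, with the deposited table and at 1.5-fold. The CA39 count rose from 0 to 1 at 1.5-fold. The CA77 count fell from 1 to 0 with an offset of 50 and with outlier spots kept, and rose to 2 with the processed signal quantile normalized, where Myl9 reached 1.16. Of 69 recomputed medians, 68 stayed the same within the tolerance, and CA39 against AR7 went from 0.11 to -0.13 among probes in grid rows over 160, an alternative that leaves 6 genes since it drops Actg2, Vcl and Srf. Of 614 recomputed differences of single contractile genes, 594 moved by less than the tolerance, and 0 results reversed past a threshold. Many of these could not move, since alternatives for probe averaging, floors and filters leave a gene with 1 probe detected on every array unchanged. Tpm1 against AR7 and CA77 changed sign for CA39 in 3 of 11 alternatives. Among all genes, the share of 2-fold differences that were higher was 82.3%, 76.1% and 77.9% with AR7, CA39 and CA77. It was 78.3%, 67.3% and 65% with 75th percentile scaling, which put the median of all genes at -0.11 with CA39, and 58.1%, 67.5% and 43.1% in grid rows over 160. The causes were not tested.

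No paired analysis was possible because each group holds 1 array, and for the same reason no leave-one-out values exist. Signal over background limits the dim genes, Myl9 among them, and no error between cultures can be given.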
